A study of Mus musculus with 9 samples.

Results

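Selenoproteins carry selenocysteine, the amino acid that holds selenium, and mice make 24 of them. The genes described here are 10 of these 24, those whose products work in the endoplasmic reticulum (ER), in mitochondria or against lipid peroxides and are grouped as the ones cells keep making when selenium is short: Gpx4, Txnrd2, Txnrd3, Selenof, Selenok, Selenos, Selenot, Selenon, Selenoo and Selenop. They were chosen by name. All 10 were found among the 55536 gene IDs of the count table through GENCODE mouse M21, and all 10 were expressed highly enough to be tested, within 13815 genes tested in all. The label fits most of them, but Selenop is made for secretion and is no ER resident, and Gpx4 acts in the cytosol as well as in mitochondria. Txnrd3 is described below with neither the ER nor the mitochondrial members. RNA counts do not show where a protein sits. Selenium supply was not varied in the study, so the grouping by selenium need was taken as given.

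The 9 RNA-seq libraries came from macrophages of wild-type mice (BMDM, bone marrow-derived macrophages), grown from males 6 to 12 weeks old with M-CSF, a macrophage growth factor, at 25 ng/mL for 6 days in medium with fetal bovine serum. Recipient cells of every group were wild-type and had the same M-CSF treatment. For 18 hours they received exosomes from BMDM of ApoE-deficient mice (EKO exosomes, 3 libraries), exosomes from BMDM of wild-type mice (WT exosomes, 3 libraries), or PBS, the vehicle (3 libraries), with exosomes at 2e+09 particles/mL. ApoE is a lipid carrier that macrophages secrete, and it was missing in the donors of the EKO exosomes, not in the cells sequenced. The sources used here do not say whether replicates came from separate mice or separate exosome preparations, although the design calls them biological, so the p-values cover only how these libraries varied, which may be technical. The libraries held 28581306 to 35929596 counts each. Replicate 3 of WT exosomes stood apart on the first principal component at 57.5, against -16.8 to 3.43 for the others, and replicate 2 of EKO exosomes and replicate 2 of WT exosomes lay at opposite ends of the next component at 38 and -45.4. The macrophage markers Csf1r, Adgre1 and Cd14 were present in all libraries, with Csf1r at 3253 to 3438 CPM (counts scaled to a fixed library size) after EKO exosomes, 3399 to 3517 after WT exosomes and 3920 to 4192 after PBS, whereas markers of other marrow cells were low in sum. Neutrophil markers summed to 3.78 to 18.3 CPM after EKO exosomes, 10.4 to 30.7 after WT exosomes and 21.1 to 30.3 after PBS. Fibroblast and stromal markers summed to 5.85 to 24.8 CPM after EKO exosomes, 16.6 to 29.9 after WT exosomes and 8.94 to 63.8 after PBS. Dendritic cell markers summed to 16.7 to 19.2, 17.8 to 19 and 17.6 to 22.6 CPM in the same order. Of 5 erythroid markers, 4 were at 0 in every library.

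In an mRNA, selenocysteine is written as UGA, the codon that elsewhere ends translation. A hairpin in the 3′ UTR, the SECIS element, recruits the proteins and the special tRNA that read it as an amino acid. When selenium is scarce, ribosomes stop at the UGA, and if an exon junction lies far enough downstream the mRNA can be destroyed by nonsense-mediated decay. Gpx1 and Selenow are textbook cases of mRNAs lost in this way, while Gpx4 is the textbook case of a selenoprotein that is spared. Macrophages use selenoproteins to keep peroxides in check and to fold and clear proteins in the ER.

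The codons themselves are shown because the selenoproteins differ in where UGA lies, which is taken up with the results below. Each sequence is coding DNA of GENCODE M21 (GRCm38), 5′ to 3′ on the sense strand, with the selenocysteine codon in capitals as TGA and up to 12 bases on either side. In Txnrd2, Txnrd3, Selenok, Selenos and Selenoo the printed bases run to the true stop codon, since selenocysteine is among the last 3 residues. Selenop is shown by the earliest of its codons.
Gpx4: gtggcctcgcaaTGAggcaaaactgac
Txnrd2: gtgactggttgcTGAggctaa
Txnrd3: cagaaaggctgcTGAggctag
Selenoo: ctctgtgtaacaTGAtcctcataa
Selenof: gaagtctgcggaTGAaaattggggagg
Selenok: atggctggtggaTGAggaaggtaa
Selenos: tcatctggcggcTGAaactaa
Selenot: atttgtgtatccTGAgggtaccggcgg
Selenon: gaccagtcctgcTGAggttccgggcgg
Selenop: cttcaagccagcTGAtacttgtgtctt
For comparison, the same codon is given for a pair of selenoproteins outside the group whose mRNA levels moved more:
Gpx1: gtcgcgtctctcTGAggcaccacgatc
Selenow: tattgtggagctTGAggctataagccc

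Selenop differs from the rest in carrying 10 selenocysteine codons in a protein of 380 residues, against 1 in each of the other 9 genes. The earliest is residue 59, in exon 2 at chr15:3274848-3274850, and the other 9 all lie in the last exon, exon 5. The stretch of its coding sequence from base 946 to base 1137 holds the last 7 of them in 192 bases:
Selenop: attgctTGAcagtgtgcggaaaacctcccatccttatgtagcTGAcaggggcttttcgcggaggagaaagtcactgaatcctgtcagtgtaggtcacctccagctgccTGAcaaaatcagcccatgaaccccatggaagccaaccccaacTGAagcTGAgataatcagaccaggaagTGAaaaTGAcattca
A pair of these codons in that stretch sit 1 codon apart at residues 366 and 368, and another pair at residues 375 and 377.

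Selenop, the plasma selenium carrier that liver secretes in bulk and that macrophages also make, dominated the group. Per kilobase of exon it stood at 651 ± 11.8 CPM after EKO exosomes, 735 ± 5.23 after WT exosomes and 693 ± 17.7 after PBS (SD, n = 3 each). The next in order was Gpx4 at 38.2 ± 0.256, 36.6 ± 2.17 and 40.1 ± 3.58 CPM per kilobase in the same groups, so that Selenop was 18.1 times higher than Gpx4 over all 9 libraries. Below Gpx4 came Selenon, Selenot, Selenos and Selenof, with means over the 9 libraries of 32.2, 28.5, 27.0 and 25.2 CPM per kilobase. Each of these 5 overlapped its neighbour in the order over the 9 libraries. Genes further apart could be separated, since every library of Gpx4 (at least 34.2) lay above those of Selenot (at most 31.4), Selenos (at most 30.3) and Selenof (at most 27.2), and every library of Selenon (at least 29.3) above those of Selenof. Selenok at 16.7, Selenoo at 7.81, Txnrd2 at 4.88 and Txnrd3 at 3.26 CPM per kilobase followed, each clear of the next over all libraries.

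**Figure D1:**
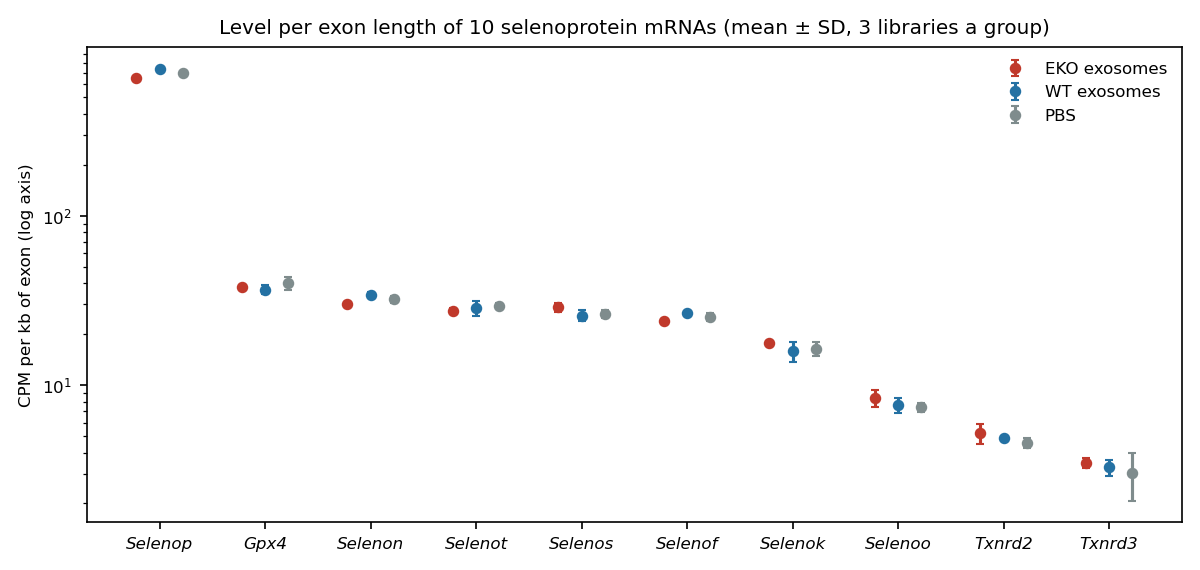
Level of each mRNA in CPM per kilobase of exon (log axis), as mean ± SD of 3 libraries for EKO exosomes, WT exosomes and PBS. Selenop lies 18.1 times above Gpx4, and the order of the genes is led by Selenop and ends with Txnrd3 in every group.

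Because it is so abundant, Selenop made up 49.0% to 49.9% of all counts on the 24 selenoproteins after EKO exosomes, 49.1% to 50.6% after WT exosomes and 50.1% to 50.8% after PBS. The 10 genes together summed to 2362 to 2418 CPM after EKO exosomes, 2631 to 2674 after WT exosomes and 2491 to 2588 after PBS. These sums did not overlap between any of the groups. Without Selenop the other 9 genes summed to 544 to 550 CPM after EKO exosomes, 556 to 574 after WT exosomes and 551 to 568 after PBS. The means of that remainder were 548 CPM after EKO exosomes and 566 CPM after WT exosomes, against 1850 and 2089 CPM for Selenop alone, so the difference in the sum of all 10 lay mostly in Selenop.

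Selenop (ENSMUSG00000064373, chromosome 15, 3268547 to 3280508 in GRCm38) was the only member that edgeR called in any comparison. It had 1864, 1874 and 1812 CPM after EKO exosomes, 2086, 2075 and 2105 CPM after WT exosomes, and 2023, 1924 and 1960 CPM after PBS. Every EKO library lay below every PBS library, and every WT library above them. Against WT exosomes, EKO exosomes left Selenop lower, at -0.175 ± 0.027 on the log2 scale (SE, with adjusted p = 0.000118 in edgeR), a difference of -11.4% with an unadjusted 95% interval of -14.7% to -8.05%. Of all genes, 0.695% were called in that comparison, 0.282% higher and 0.413% lower. Leaving out any single library kept the call, with log2 fold changes of -0.184 to -0.163 and edgeR adjusted p values up to 0.003. In a bulk sample, less RNA per cell and fewer cells of an expressing type cannot be told apart. The summed macrophage markers ranged over 20600 to 21600 CPM after EKO exosomes and 20800 to 21400 CPM after WT exosomes, which overlap, and over 22400 to 23700 CPM after PBS. Lyz2 supplied most of that sum, at 12840 to 13620 CPM after EKO exosomes and 12570 to 13290 CPM after WT exosomes. Lyz2 was also the only marker with an estimate above 0 between the exosomes, at 0.026 (log2). Of the 8 markers 7 were below 0, with a median of -0.0624 over all 8. For 3 of the 8, every EKO library lay below every WT library, as for 968 of the 13815 genes tested. Among those markers only Fcgr1, an activating Fc receptor, was called between the exosomes, at -0.395 ± 0.052 (edgeR adjusted p = 9.58e-06). The part of these markers in the Selenop result was not tested.

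Against PBS the differences of Selenop were smaller. After EKO exosomes it stood lower at -0.09 ± 0.027 on that scale (adjusted p = 0.0452 in edgeR), a difference of -6.05%, in a comparison where 4.23% of all genes were called, 1.82% higher and 2.41% lower. That call was fragile, since it ended without replicate 1 (adjusted p = 0.0842), replicate 2 (0.105) or replicate 3 (0.235) of EKO exosomes, without replicate 2 (0.0592) or replicate 3 (0.068) of WT exosomes, and without replicate 1 (0.282) or replicate 3 (0.0559) of PBS. It also ended in edgeR with no filter on low counts (adjusted p = 0.131) and with only the 6 libraries compared (adjusted p = 0.0621). After WT exosomes Selenop stood at 0.085 ± 0.027 (log2), a difference of 6.09% with an interval of 2.18% to 10.2%, and missed the threshold in edgeR (adjusted p = 0.0646). It passed under limma-voom (adjusted p = 0.00315), under DESeq2 (adjusted p = 0.0066) and, in edgeR, without replicate 1 of PBS (adjusted p = 0.0341). Both of these comparisons use the same PBS libraries. Of the 8 macrophage markers, 6 were called lower in EKO exosomes against PBS, and 6 lower and 1 higher in WT exosomes against PBS, and their part in the Selenop values was not tested.

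Exons of Ccdc152, a gene on the opposite strand, overlap 15.4% of the exon length of Selenop. Ccdc152 had 76 to 100 counts per library after EKO exosomes, 111 to 148 after WT exosomes and 99 to 144 after PBS. Selenop had 53619 to 69196 counts, far above those assigned to Ccdc152. The counter and strand setting were not given, so reads in the shared exons may have been dropped or assigned to either gene. Their share in the counts of Selenop was not measured.

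**Figure D2:**
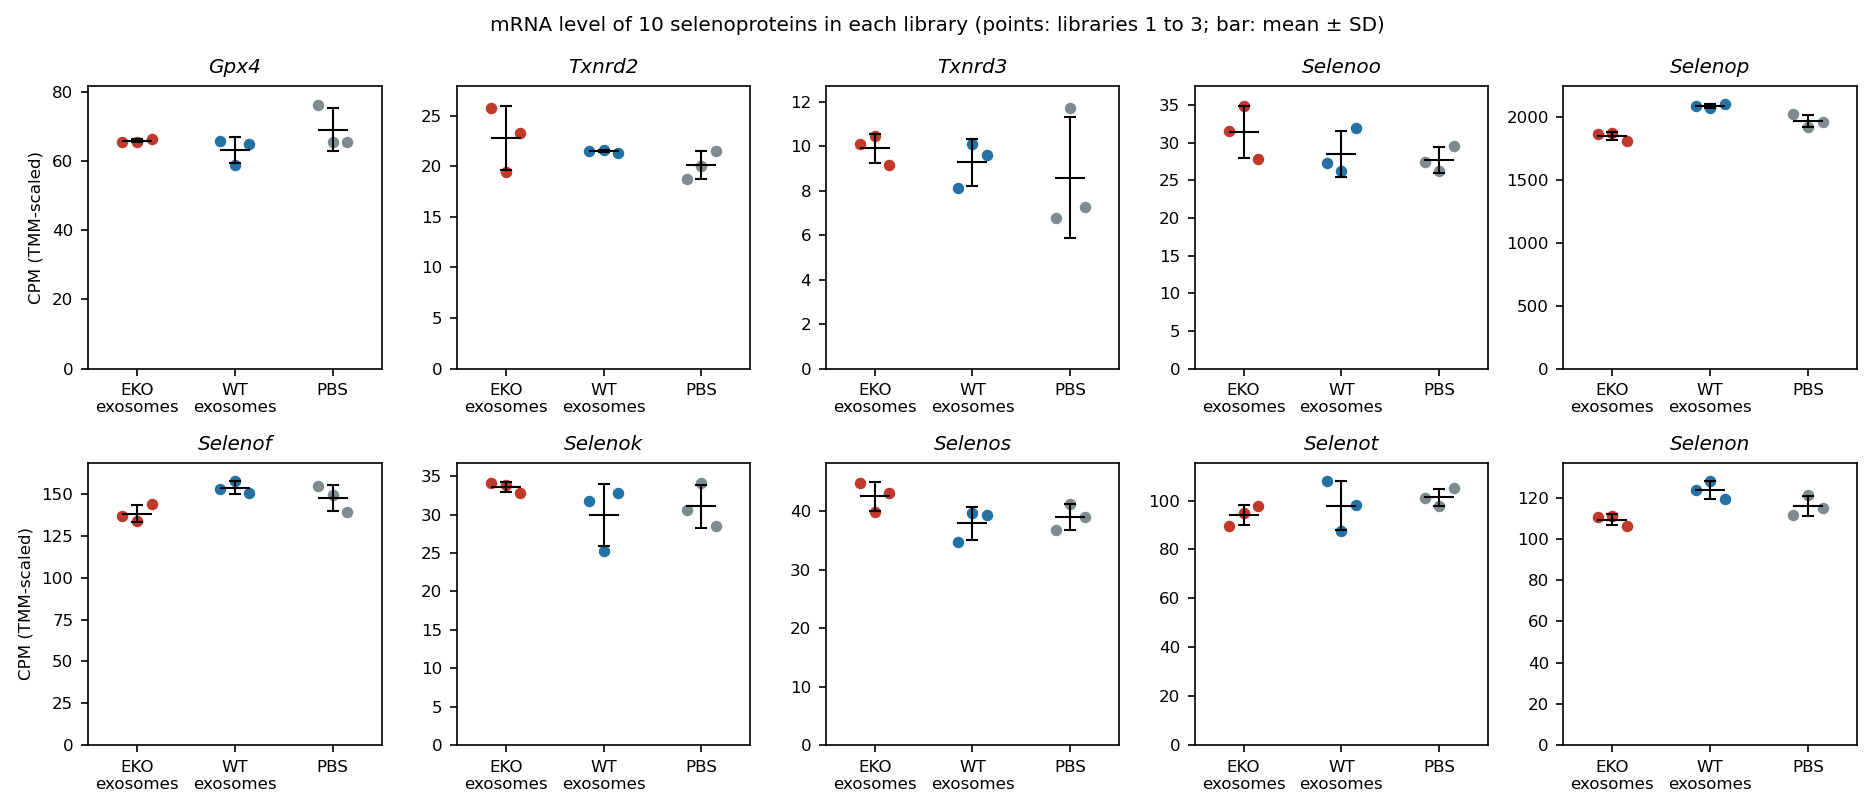
TMM-scaled CPM of each of the 10 genes, with a point for each library and a bar for the mean ± SD of 3 libraries, in EKO exosomes, WT exosomes and PBS. Selenop is the gene whose libraries separate fully, with EKO exosomes at 1812 to 1874, WT exosomes at 2075 to 2105 and PBS at 1924 to 2023 CPM.

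The remaining 9 genes gave no call in edgeR in any of the 3 comparisons. In EKO against WT exosomes 2 of them had an unadjusted p under 0.05, and in the other comparisons none did. Of the 13815 genes tested, 1126 had such a p in EKO against WT exosomes. In EKO exosomes against PBS 1805 did, and in WT exosomes against PBS 1936. DESeq2 called 1 of them, Selenon, between EKO and WT exosomes (adjusted p = 0.0286). Estimated changes of the 9 ran from -7.2% to 15.1% for EKO exosomes against PBS, from -8.56% to 7.85% for WT exosomes against PBS and from -11.8% to 12.3% for EKO against WT exosomes. The upper ends against PBS are both Txnrd3 and depend on single PBS libraries, as given with that gene. The median log2 fold change over all 10 genes was 0.0214, 0.0501 and 0.0742 in these comparisons, beside -0.000523, -0.00335 and 0.000193 over all genes tested. Missing the threshold does not show that a gene did not differ, and the intervals below say how large a difference each gene could still have.

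Gpx4 is the peroxidase that reduces lipid hydroperoxides within membranes and so guards cells against ferroptosis. It had 65.7, 65.5 and 66.3 CPM after EKO exosomes, 65.7, 58.9 and 64.9 CPM after WT exosomes, and 76.2, 65.6 and 65.5 CPM after PBS. The groups overlapped, and replicate 1 of PBS was the high library. Its log2 fold changes were -0.069 ± 0.069 for EKO exosomes against PBS, -0.129 ± 0.069 for WT exosomes against PBS and 0.06 ± 0.069 for EKO against WT exosomes (edgeR adjusted p = 0.795, 0.425 and 0.91). In percent, the unadjusted 95% intervals were -13.5% to 5.05%, -17.1% to 0.81% and -5.46% to 14.9%. Without replicate 1 of PBS, the estimate was 0.0073 for EKO exosomes against PBS and -0.053 for WT exosomes against PBS, and without replicate 2 of WT exosomes it was -0.079 for WT exosomes against PBS and 0.012 for EKO against WT exosomes. A pseudogene copy, Gpx4-ps2, had 12 to 40 counts per library against 1799 to 2347 for Gpx4. How reads that fit both copies were counted is not given, so their number is not known.

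The mitochondrial members are Txnrd2, which reduces mitochondrial thioredoxin, and Selenoo, an enzyme that transfers AMP onto other proteins. Txnrd2 had 25.7, 19.4 and 23.3 CPM after EKO exosomes, 21.5, 21.6 and 21.3 CPM after WT exosomes, and 18.7, 20.0 and 21.5 CPM after PBS. Replicate 2 of EKO exosomes was low within its group, and the groups overlapped. The estimates were 13.8% for EKO exosomes against PBS (interval -3.09% to 33.5%), 6.97% for WT exosomes against PBS (-8.92% to 25.6%) and 6.34% for EKO against WT exosomes (-9.38% to 24.8%). On the log2 scale the 0.186 for EKO exosomes against PBS became 0.089 without replicate 1 of EKO exosomes and 0.291 without replicate 2. Selenoo had 31.5, 34.9 and 27.9 CPM after EKO exosomes, 27.4, 26.2 and 32.0 CPM after WT exosomes, and 27.4, 26.2 and 29.6 CPM after PBS. Its groups overlapped too, with estimates of 13.2% (-1.9% to 30.6%), 2.81% (-11% to 18.7%) and 10.1% (-4.58% to 27.1%) in the same order of comparisons. Exons of Tubgcp6 overlap 26.7% of the exon length of Selenoo, and Tubgcp6 had 1415 to 1819 counts per library against 802 to 1127 for Selenoo, so the counts of Selenoo may hold reads of its neighbour.

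Txnrd3, the thioredoxin and glutathione reductase best known from testis, was the lowest member. Its libraries had 10.1, 10.4 and 9.15 CPM after EKO exosomes, 8.11, 10.1 and 9.60 CPM after WT exosomes, and 6.78, 11.7 and 7.28 CPM after PBS. Replicate 2 of PBS lay above all other libraries, and the coefficient of variation in PBS was 31.5%. The intervals were accordingly wide, from -11% to 49.0% for EKO exosomes against PBS, from -16.7% to 39.6% for WT exosomes against PBS and from -17.4% to 38.1% for EKO against WT exosomes. Txnrd3 had 201 to 385 counts per library. The estimate for EKO exosomes against PBS, 0.204 (log2), was 0.494 without replicate 2 of PBS, 0.063 without replicate 1 and 0.095 without replicate 3. For WT exosomes against PBS, 0.109 became 0.399 without replicate 2 of PBS, -0.032 without replicate 1 and 0.00014 without replicate 3.

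Selenof and Selenon lie close behind Selenop in how the groups were ordered. Selenof works in the ER with UGGT, the sensor of glycoprotein folding, and had 137, 134 and 144 CPM after EKO exosomes, 153, 158 and 151 CPM after WT exosomes, and 155, 149 and 139 CPM after PBS. Every library of EKO exosomes was below every library of WT exosomes, with PBS overlapping both. The difference between EKO and WT exosomes was -0.154 ± 0.048 on the log2 scale, or -10.1% (interval -16% to -3.86%), with an unadjusted p of 0.0028 and an edgeR adjusted p of 0.179. Selenon, a sensor of ER calcium that acts on the calcium pump SERCA and is lost in a congenital muscle disease, had 111, 111 and 106 CPM after EKO exosomes, 124, 128 and 120 CPM after WT exosomes, and 112, 121 and 115 CPM after PBS. The EKO libraries lay below all others. EKO minus WT exosomes gave a log2 fold change of -0.181 ± 0.051, or -11.8% (interval -17.8% to -5.24%), with an unadjusted p of 0.00108 and an edgeR adjusted p of 0.103, and DESeq2 called it as given above. Against PBS, Selenon was at -5.83% after EKO exosomes (interval -12.3% to 1.14%) and at 6.72% after WT exosomes (-0.614% to 14.6%), and Selenof at -6.29% (-12.4% to 0.246%) and 4.27% (-2.52% to 11.5%).

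Selenos and Selenok, ER membrane proteins of the degradation and signalling machinery, had estimates in the other direction between the exosomes. This was not particular to them, since 6 of the 10 genes were above 0, with Gpx4, Txnrd2, Txnrd3 and Selenoo among them. Selenot, also of the ER membrane, was at -0.058 (log2). Selenos, which links the derlin channel to the ATPase p97 in ER-associated degradation (ERAD), had 44.7, 39.9 and 43.1 CPM after EKO exosomes, 34.7, 39.7 and 39.4 CPM after WT exosomes, and 36.8, 41.3 and 38.9 CPM after PBS. The libraries of EKO and WT exosomes did not overlap, though by a margin of 39.9 against 39.7 CPM, and the estimate was 12.3% (interval -0.39% to 26.6%; edgeR adjusted p = 0.63). Selenok, the partner of the palmitoyl transferase ZDHHC6 in immune cell calcium flux, had 34.0, 33.9 and 32.8 CPM after EKO exosomes, 31.7, 25.3 and 32.8 CPM after WT exosomes, and 30.6, 34.1 and 28.5 CPM after PBS. Replicate 2 of WT exosomes was the low library, and the estimate between EKO and WT exosomes was 12.1% (-2.59% to 28.9%, with edgeR adjusted p = 0.734). Without that library the log2 fold change of Selenok went from 0.164 to 0.057. Pseudogene copies of Selenok had few counts assigned to them, at most 20 in a library for Selenok-ps1, and reads fitting more than 1 copy were not measured. Against PBS, Selenos was at 9.25% after EKO exosomes (-3.06% to 23.1%) and -2.7% after WT exosomes (-13.7% to 9.72%), and Selenok at 8.09% (-6.02% to 24.3%) and -3.55% (-16.2% to 11%).

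Selenot, a thioredoxin-like protein of the ER membrane, had 89.6, 95 and 97.7 CPM after EKO exosomes, 108, 87.7 and 98.1 CPM after WT exosomes, and 101, 98.0 and 105 CPM after PBS. The EKO libraries lay just below those of PBS, and the WT libraries spanned both. Its estimates were -7.2% for EKO exosomes against PBS (interval -14.9% to 1.19%), -3.37% for WT exosomes against PBS (-11.4% to 5.36%) and -3.96% for EKO against WT exosomes (-11.9% to 4.74%). Over the group, libraries did not overlap for 3 of 10 genes in EKO exosomes against PBS (Selenop, Selenon and Selenot), for 1 in WT exosomes against PBS (Selenop) and for 4 in EKO against WT exosomes (Selenop, Selenon, Selenof and Selenos). Among all genes tested the libraries did not overlap for 18.3%, 17.5% and 14% in these comparisons. In an F test for any difference among the 3 groups, which called 5.28% of all genes, Selenop alone of the 10 passed (edgeR adjusted p = 6.41e-05), with Selenon next at 0.0727 and Selenof at 0.13. DESeq2 also called Selenon in that test (adjusted p = 0.0304).

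**Figure D3:**
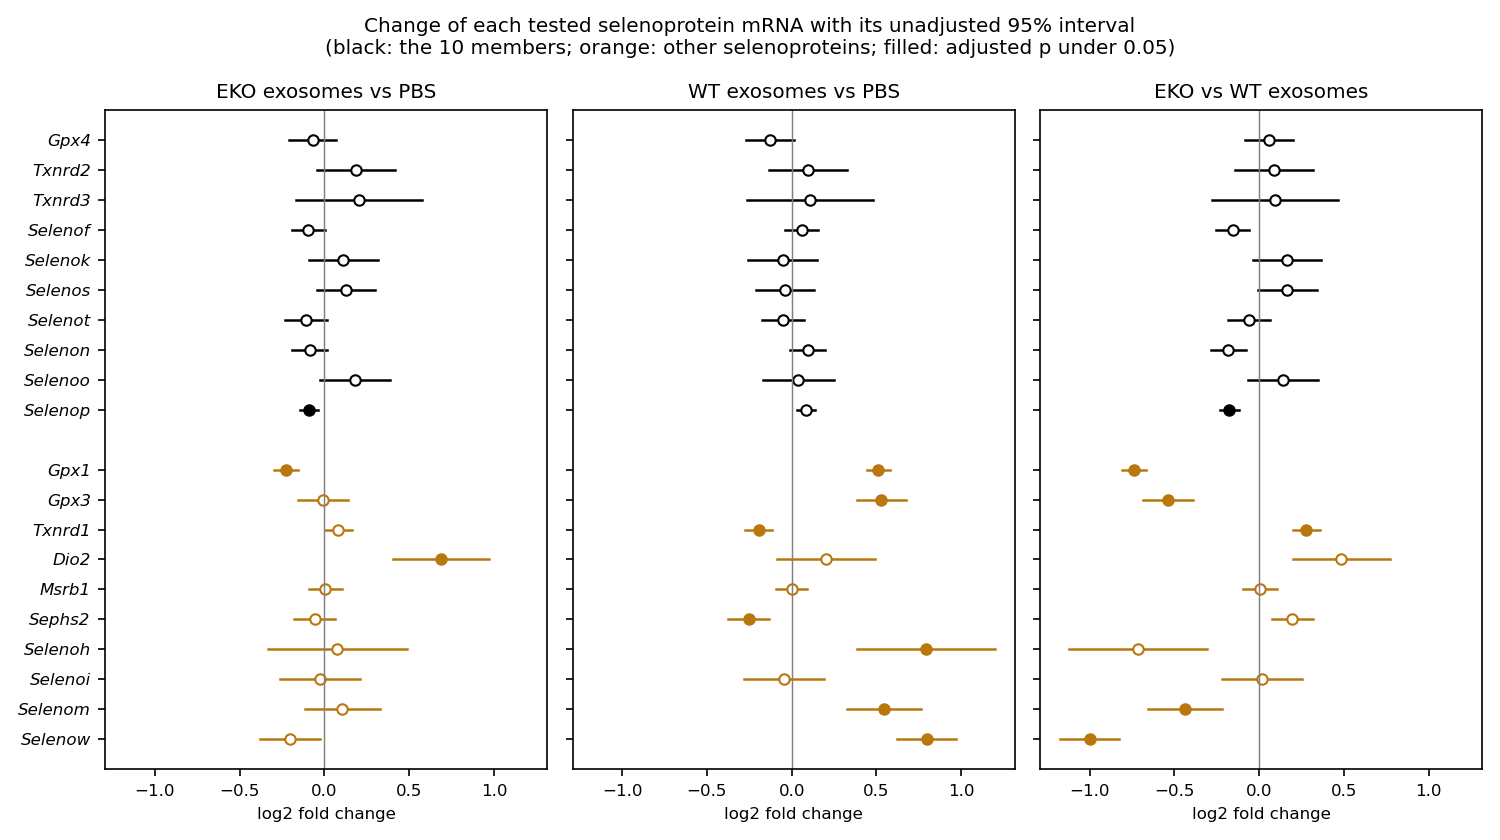
Log2 fold change of the 20 tested selenoproteins (x axis) with its unadjusted 95% interval, in 3 comparisons, with the 10 genes described here in black and the others in orange, and filled points for an edgeR adjusted p under 0.05. The black points lie between -0.181 and 0.204, while Selenow in orange reaches 0.796 in WT exosomes against PBS and -1 in EKO against WT exosomes.

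The selenoproteins outside the group were set beside it to see how the 10 differ. Of the 14, 10 were expressed enough to be tested, while Gpx2, Dio3 and Selenov had no counts and Dio1 had 3 counts in 1 library. In WT exosomes against PBS, 5 of the 10 rose and 2 fell, against none of the 10 described here in edgeR and 1, Selenop, with DESeq2 or limma-voom, where 4.11% of all genes were called, 1.93% higher and 2.18% lower. Gpx1, the abundant cytosolic glutathione peroxidase, had 333, 345 and 330 CPM after EKO exosomes, 571, 560 and 552 CPM after WT exosomes, and 393, 378 and 409 CPM after PBS. No libraries of different groups overlapped. EKO minus WT exosomes gave -0.739 ± 0.035 in log2 (adjusted p = 1.64e-17, edgeR). Selenow, a small redox protein, was at -1 ± 0.086 (adjusted p = 9.17e-10) and the secreted peroxidase Gpx3 at -0.539 ± 0.072 (1.32e-05). Txnrd1, the cytosolic thioredoxin reductase, was higher after EKO than after WT exosomes by 0.278 ± 0.039 (3.48e-05), whereas its mitochondrial relative Txnrd2 was at 0.089 ± 0.11. Against PBS, EKO exosomes gave -0.227 ± 0.035 for Gpx1 (1.93e-05), -0.204 ± 0.087 for Selenow (0.261) and 0.083 ± 0.039 for Txnrd1 (0.354), and WT exosomes gave 0.512 ± 0.035 for Gpx1 (7.95e-13), 0.796 ± 0.085 for Selenow (6.78e-08) and -0.195 ± 0.039 for Txnrd1 (0.00131). Dio2, a thyroid hormone deiodinase named here after its values were seen, rose in EKO exosomes against PBS by 0.689 ± 0.14 (0.00133).

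Ratios within a library set a member against a relative without any scaling between libraries. Gpx1 counts were 4.98 to 5.27 times those of Gpx4 after EKO exosomes, 8.5 to 9.51 times after WT exosomes and 5.15 to 6.24 times after PBS. The WT libraries stood above the rest, and EKO and PBS overlapped. Selenow counts were 0.34 to 0.367 times those of Selenot after EKO exosomes, 0.663 to 0.683 times after WT exosomes and 0.34 to 0.416 times after PBS. Txnrd1 counts were 21.8 to 28.5 times those of Txnrd2 after EKO exosomes, 20.5 to 22.7 times after WT exosomes and 24.4 to 29.6 times after PBS. For 2 members, the ratio of Selenop to Selenof counts was 12.6 to 14 after EKO exosomes. It was 13.1 to 13.9 after WT exosomes and 12.9 to 14.1 after PBS. These 2 kept nearly the same proportion, but both were lower after EKO than after WT exosomes, at -0.175 and -0.154 (log2). The pair does not stand for the group, since 6 of the 10 were above 0 there, Selenos at 0.167 among them.

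**Figure D4:**
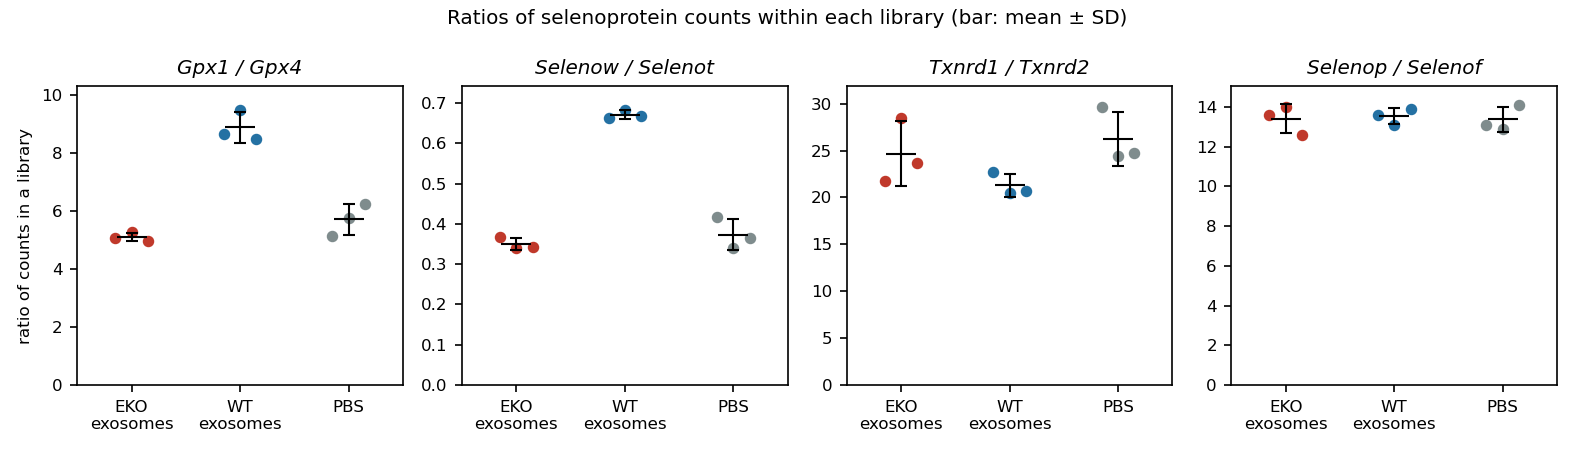
Ratio of counts within each library for 4 pairs of selenoproteins, with a point for each library and a bar for the mean ± SD of 3 libraries, in EKO exosomes, WT exosomes and PBS. Gpx1 to Gpx4 and Selenow to Selenot are highest after WT exosomes, at 8.5 to 9.51 and 0.663 to 0.683, while Selenop to Selenof lies between 12.6 and 14.1 in all libraries.

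The place of the selenocysteine codon was measured as the number of bases from the codon to the last exon junction of the mRNA, on 1 transcript per gene. A codon more than about 55 bases before that junction is in the position where a stop can trigger nonsense-mediated decay. By this measure the earliest UGA lies that far upstream in 6 of the 10 genes, namely 470 bases in Selenot, 357 in Selenop, 342 in Gpx4, 216 in Selenon, 83 in Txnrd2 and 78 in Selenof. It lies 5 bases before the junction in Selenok and after it, in the last exon, in Txnrd3, Selenos and Selenoo. In Selenop the other 9 codons are after the last junction. So the group holds mRNAs of both kinds, and its members with an upstream codon were at -0.129 to 0.097 (log2) in WT exosomes against PBS, with none called in edgeR and Selenop called by DESeq2 and limma-voom.

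The tested selenoproteins outside the group with an upstream codon were Gpx1, Gpx3, Selenoh, Selenom and Selenow, at 105 to 243 bases. All 5 rose in WT exosomes against PBS, by 0.512 to 0.796, where 1.93% of all genes were called higher. The members with the same feature spanned 0 at the values just given. Between EKO and WT exosomes the 6 members with an upstream codon were at -0.181 to 0.089 with 1 called lower. These 5 were at -1 to -0.437 with 4 called lower. Of all genes, 0.413% were called lower there. Members whose codon lies near or after the last junction, Txnrd3, Selenok, Selenos and Selenoo, had estimates of 0.094 to 0.167 between EKO and WT exosomes, none of them called. The 4 tested selenoproteins outside the group in that position were at 0.0064 to 0.486 between the exosomes, with 1 called higher. In WT exosomes against PBS those 4 were at -0.195 to 0.203, with 1 called lower. The distance limit and the comparison were chosen with the results known, so these are descriptions without a test.

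**Figure D5:**
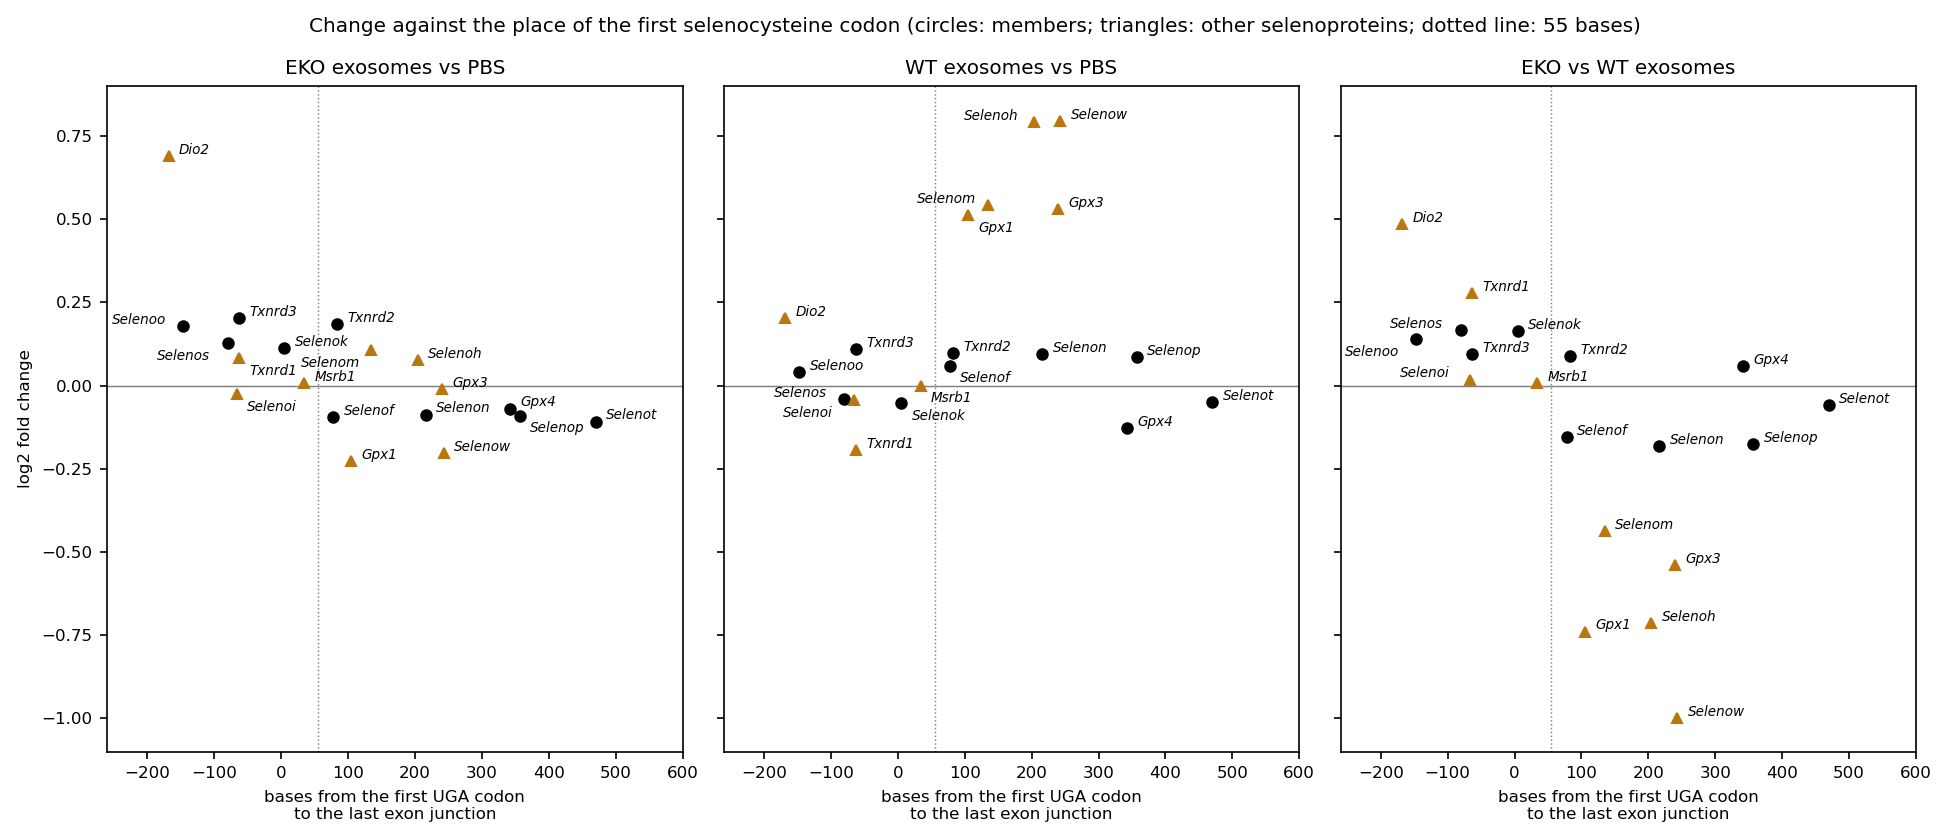
Log2 fold change (y axis) against the number of bases from the earliest UGA codon to the last exon junction (x axis, negative where the codon lies after it) for the tested selenoproteins with more than 1 exon, as circles for the genes described here and triangles for the others. Right of the dotted line at 55 bases, the triangles lie at 0.512 to 0.796 in WT exosomes against PBS, and the circles at -0.129 to 0.097.

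Genes that serve these selenoproteins were followed in lists chosen by name. Of 14 genes of selenium uptake and selenocysteine synthesis or insertion, 13 were tested. None was called in EKO exosomes against PBS, Sephs2, which makes the selenium donor and is itself a selenoprotein, was lower in WT exosomes against PBS at -0.253 ± 0.06 (edgeR adjusted p = 0.00722), and Sars, the enzyme that loads serine onto the selenocysteine tRNA, was higher in EKO than in WT exosomes at 0.244 ± 0.06 (adjusted p = 0.0397). Lrp8, the receptor that takes up Selenop, had 23.8 ± 3.02 CPM after EKO exosomes, 22.7 ± 3.0 after WT exosomes and 24.3 ± 0.905 after PBS, and was not called. The median log2 fold changes of this list were 0.0441, 0.0171 and 0.00767 in EKO exosomes against PBS, WT exosomes against PBS and EKO against WT exosomes. Of all genes tested, 4.23%, 4.11% and 0.695% were called in the same order.

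Around the ER members, 20 ERAD and glycoprotein folding genes were tested, and only Edem1, which extracts misfolded glycoproteins, was called, higher in EKO exosomes against PBS at 0.194 ± 0.036 (edgeR adjusted p = 0.000436) and higher in WT exosomes against PBS at 0.145 ± 0.036 (0.0127). The medians over the list were 0.00547, 0.00227 and 0.0183 in the 3 comparisons. Of all genes tested, 4.23%, 4.11% and 0.695% were called in them, so 1 of 20 against PBS is near the share of all genes. Of 16 genes of ER calcium and oxidative folding, Itpr1, an ER calcium channel, was lower in WT exosomes against PBS at -0.341 ± 0.085 (0.0114), and none was called in the other comparisons. None of 9 genes of the mitochondrial thioredoxin system, which surrounds Txnrd2, was called in edgeR, with medians of -0.0795, -0.0211 and -0.0397.

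Around Gpx4, 19 of 20 genes of glutathione supply, iron handling and ferroptosis were tested. In EKO exosomes against PBS 1 rose, Fth1, the ferritin heavy chain that stores iron, at 0.111 ± 0.023 (edgeR adjusted p = 0.0018). Of all genes tested, 1.82% were called higher in that comparison. In WT exosomes against PBS 1 rose and 5 fell, where 1.93% of all genes were called higher and 2.18% lower. The gene that rose was Tfrc, the transferrin receptor, at 0.265 ± 0.074 (0.0312), and the lowest estimate among the 5 that fell was that of Gclm, the modifier subunit of the same enzyme as Gclc, at -0.481 ± 0.093 (0.0328), both named after their values were seen. Among the others that fell were Slc40a1, the iron exporter, at -0.225 ± 0.034 (2.11e-05), Gsr, glutathione reductase, at -0.242 ± 0.059 (0.0106), and Gclc, which starts glutathione synthesis, at -0.212 ± 0.061 (0.0362). The last of the 5, Acsl4, also named after its values were seen, was at -0.199 ± 0.057 (0.0362). Slc40a1 was, between EKO and WT exosomes, higher by 0.19 ± 0.034 (0.00118) and Gclc by 0.251 ± 0.061 (0.0345), where 0.282% of all genes were called higher. Gpx4 itself, as given above, was not called in these comparisons.

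Across the 9 libraries, the genes whose log2 CPM followed Selenop most closely were Hivep3, a transcription factor (Pearson r = 0.97), Cpt1a, the gate of fatty acid entry into mitochondria (r = 0.964), and 1810055G02Rik (r = 0.952), over 13815 genes of which 99% had r below 0.746. Cpt1a had means of 298 CPM after EKO exosomes, 324 after WT exosomes and 314 after PBS. With 9 libraries that share their group structure and so many genes, such values describe the pattern and were not tested.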

How the data were processed

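RNA-seq libraries of 9 macrophage cultures were analysed from the table of raw counts per Ensembl gene that the authors deposited, with a column per library and no other columns. The submitters' processing notes name STAR 2.7.5c and GRCm38. The gene annotation release, counter and strand setting were not given in the sources used here, so reads of overlapping genes cannot be assigned with certainty. Symbols, exon-union lengths and selenocysteine codons came from GENCODE M21 (GRCm38), which matched all 55536 IDs. For codons, the basic coding transcript with the most annotated selenocysteines, then the longest coding sequence, was taken.

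Genes were filtered with filterByExpr at a minimum count of 10, leaving 13815, scaled with TMM factors, and tested with edgeR 4.0.16 (R 4.3.3), a robust quasi-likelihood model with group as its only term over all 9 libraries. Benjamini-Hochberg adjustment ran over all genes that passed the filter, and a gene was called when this adjusted p was under 0.05. Standard errors were derived from F statistics, and 95% intervals are unadjusted. CPM values are TMM-scaled, and levels between genes are divided by exon length. With 3 libraries against 3 the smallest exact permutation p is 0.1, and no such test was run. The scripts were tested on simulated counts. Alternatives were DESeq2 1.42.0, limma-voom (limma 3.58.1), other scaling and filter, fewer libraries and a replicate block.

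Pairs of libraries were compared for duplicates by chi-square over genes, which gave 6.76 to 10.2 per gene within groups, so all 9 were kept. The members, lists and tests were chosen with earlier results of these data known. All members were named, and from each list up to 4 called genes by lowest p, with Gpx1, Selenow and Txnrd1 always. For a called member the 3 genes of highest Pearson r were named. Any further gene is marked where it appears.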

Additional observations from a re-analysis of the deposited data

Results flagged for a closer look

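By the direct edgeR test of EKO against WT exosomes, effects on the recipient cells differed for 1 of the 10 genes described here. They also differed for 9 of the genes set beside them. The lists held 152 genes in all, with the 10 included and not all tested. Of all genes tested, 0.695% were called in that comparison. Selenop was lower after EKO exosomes, with a log2 fold change of -0.175 (adjusted p = 0.000118). Among the other selenoproteins Gpx1 was at -0.739, Selenow at -1, Gpx3 at -0.539, Selenom at -0.437 (adjusted p = 0.0402) and Txnrd1 at 0.278. Sars, the seryl-tRNA synthetase, was at 0.244. Gclc of glutathione synthesis was at 0.251 and the iron exporter Slc40a1 at 0.19. The macrophage marker Fcgr1 was at -0.395. No cause of these differences was tested. The check for a single outlying value needs at least 4 libraries a group and was not applied.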

How the results depend on the processing

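Counts of genes called kept within 1.5 times of their value in every alternative run for EKO exosomes against PBS and for WT exosomes against PBS. Between EKO and WT exosomes, 96 genes were called in edgeR, 157 with DESeq2, and 52 to 109 when single libraries were left out, with 52 and 56 without replicates 1 and 2 of EKO exosomes and 59 and 56 without replicates 2 and 3 of WT exosomes. Of the 10 selenoproteins, 1 was called in EKO exosomes against PBS, 0 with no filter on low counts, 0 with only the 6 libraries compared, and 0 to 1 when single libraries were left out. In WT exosomes against PBS none was called in edgeR (1 at an unadjusted p under 0.05), 1 with DESeq2, 1 with limma-voom, and 0 to 1 when single libraries were left out. Between EKO and WT exosomes, and for any difference among the 3 groups, 1 was called, and 2 with DESeq2. The median log2 fold change of the 10 moved over -0.015 to 0.045, 3e-04 to 0.067 and 0.025 to 0.083 for EKO exosomes against PBS, WT exosomes against PBS and EKO against WT exosomes when single libraries were left out.

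Estimates that changed sign when a single library was left out were all uncalled. In EKO exosomes against PBS, Gpx4 ranged over -0.107 to 0.0073. In WT exosomes against PBS, Txnrd3 ranged over -0.032 to 0.399, Selenok over -0.12 to 0.058, Selenos over -0.079 to 0.021, Selenot over -0.126 to 0.027 and Selenoo over -0.047 to 0.099. In EKO against WT exosomes, Txnrd2 ranged over -0.0091 to 0.191 and Selenot over -0.131 to 0.016. The cause was not tested.

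Whether replicate numbers pair the libraries is not stated. Deviations from the group means correlated at -0.035 to 0.0402 for the 9 pairs of libraries with the same number. For the 18 pairs with different numbers they correlated at -0.0483 to 0.0385, and no pair of either kind was above 0.1. With 3 libraries a group, such values show no sign of pairing but cannot exclude it. With the replicate number as a block, 144 genes were called between EKO and WT exosomes and 1 of the 10 selenoproteins, Selenop, in WT exosomes against PBS (edgeR adjusted p = 0.0241). The widest intervals were those of Txnrd3, with 201 to 385 counts per library.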
